A study of Mus musculus with 8 samples.

Results

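The genes described here are 43 epidermal genes of the mouse: keratins, components of the desmosome and genes of the suprabasal and cornified layers. They were taken by symbol from a table of read counts for 25247 Ensembl genes, in which 42 of the 43 were matched. The expression of Flg was not analysed here. By the layer or structure they mark, 4 were placed as basal, 6 as hair follicle and stress keratins, 4 as simple epithelial keratins, 12 as suprabasal, 10 as desmosomal and 7, Flg included, as cornified.

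The counts came from bulk RNA sequencing of Langerhans cells, the dendritic cells that reside in the epidermis, and the series concerned the part of Ezh2 in their migration and in allergic contact dermatitis. Ezh2 encodes the histone methyltransferase of Polycomb repressive complex 2. The 8 libraries were from C57BL/6 mice, wild type (WT) or EZH2 -/- (knockout, KO), with no treatment named for either group. The cells were taken from the ear epidermis by a sort for DAPI- CD45+ Ly6G- CD103- MHCII+ CD24+ EpCAM+ events. The sources used here do not give the age of the mice, the deleted part of the gene or the promoter of any Cre driver. Separate animals are not named for the libraries, so a p-value here reflects how far these 8 libraries scatter, and that scatter can be technical.

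Epidermal keratinocytes divide in the basal layer, where the keratins Krt5 and Krt14 pair into filaments, and then move outward. In the suprabasal layers Krt1 and Krt10 replace them, desmosomes bind the filaments of neighbouring cells, and in the outermost layer loricrin, involucrin and filaggrin are crosslinked into the cornified envelope. Langerhans cells lie between these keratinocytes but do not make such a filament system or envelope, and keratinocytes lack the CD45 used in the sort.

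Each library carries a code, and the titles and descriptions of the samples gave different genotypes for 4 of the 8. RMN030 and RMN031 were WT and RMN038 and RMN039 were KO by both labels, and these 4 are called the undisputed libraries. RMN032 and RMN033 were KO by title and WT by description, and RMN036 and RMN037 were the reverse. The description reading therefore sets RMN030 to RMN033, the earlier code run, against RMN036 to RMN039, the later code run, so that genotype and code run cannot be told apart. Under the title reading each run holds 2 WT and 2 KO libraries. In the undisputed comparison both WT libraries are likewise of the earlier run and both KO libraries of the later run. Genotype and code run therefore cannot be told apart there either. The undisputed comparison and the description reading share RMN030, RMN031, RMN038 and RMN039, and their results are not independent.

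Library totals were 11051402 to 18966195 counts. All 8 Langerhans cell markers examined were present in every library, with Cd207, which encodes langerin, at 9706 to 11960 CPM (a count scaled to the total of its library). Ezh2 itself was detected in every library at 10.5 to 22.35 CPM. As the deleted part is not known, its level does not check the genotype labels. RMN030 and RMN031 stood apart in the summed level of 8 T cell markers, at 207.1 and 189.1 CPM against 3.22 to 8.40 CPM in the other 6 libraries. The later code run had higher sums of 5 red cell markers (580.2 to 1355 CPM against 122.4 to 226.4), of 6 fibroblast markers (117.5 to 196.6 CPM against 36.95 to 62.85) and of 5 mast cell markers (44.47 to 65.57 CPM against 31.08 to 43.09). It also had more mitochondrial counts (3.76% to 4.03% against 1.02% to 1.87% of a library). Counts of the 4 measured Merkel cell markers summed to at most 1.34 CPM.

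The 42 genes together took 18630 to 23860 CPM, about 2% of a library (1.86% to 2.39%). Their mean level was above 1000 CPM for 5 genes, above 100 CPM for 23 and below 1 CPM for 6. Basal genes made up 55.9% of the sum, desmosomal genes 17.1%, suprabasal genes 14.3%, and hair follicle and stress keratins 11.6%. Cornified genes made up 1.09% and simple epithelial keratins 0.00762%. The sum of all members was 21790 ± 2468 CPM (SD, n = 4) in the earlier run and 21170 ± 1155 CPM in the later run, with overlapping ranges. In bulk RNA, fewer cells of a type and less RNA per cell cannot be told apart.

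**Figure D1:**
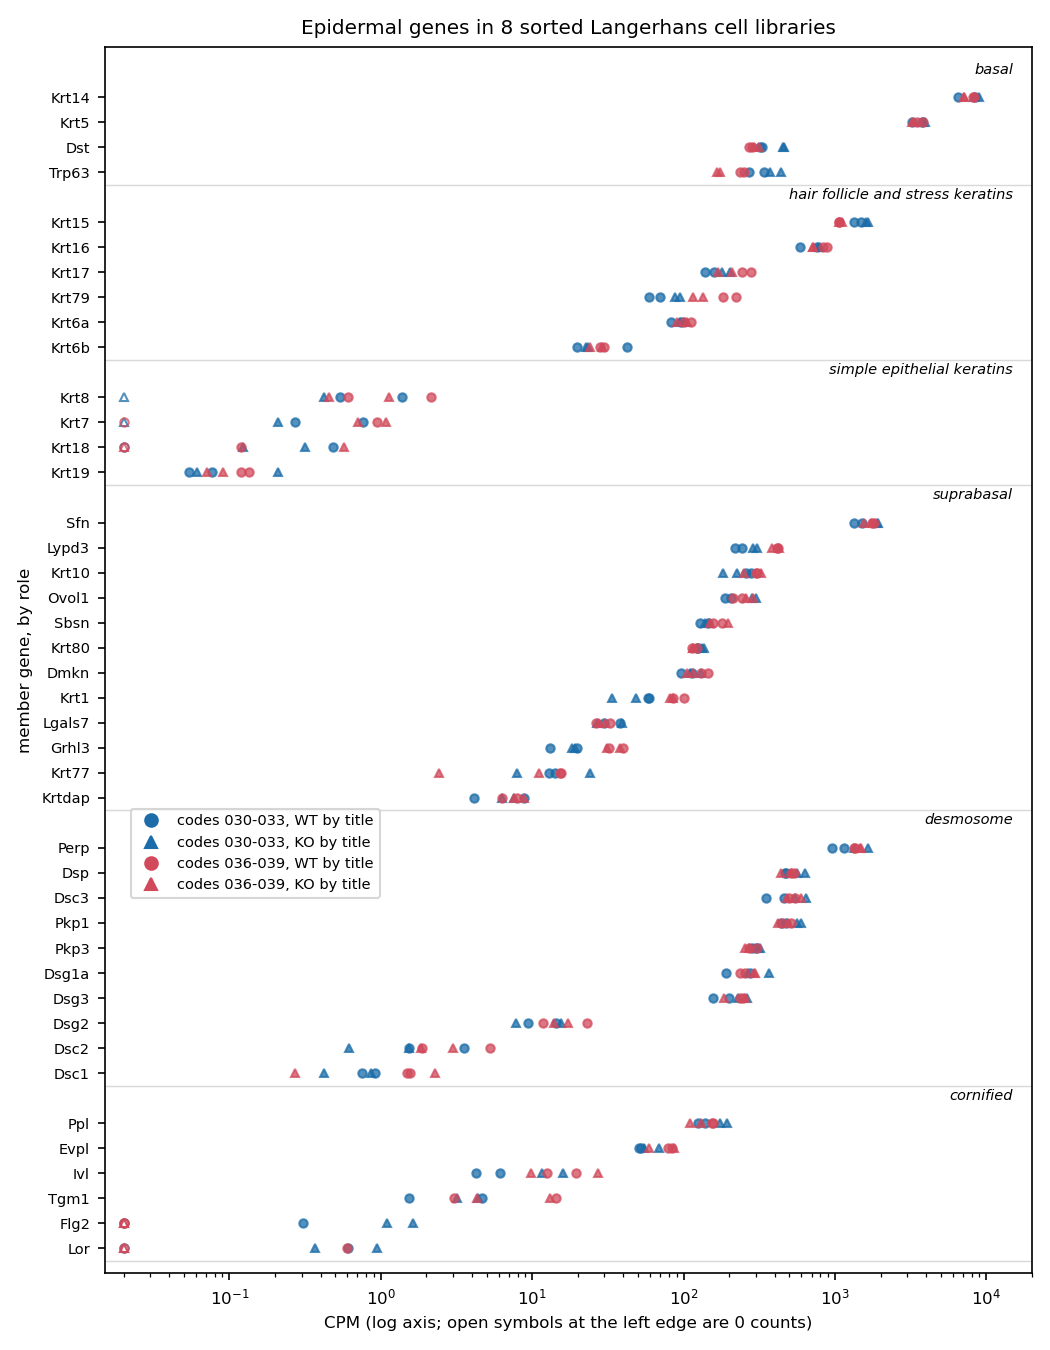
Level of each measured member in each of the 8 libraries, in CPM on a log axis, grouped by role; blue marks the earlier and red the later code run, circles WT and triangles KO by title, and open symbols at the left edge 0 counts. Krt14 and Krt5 lie highest at 6463 to 8876 and 3234 to 3951 CPM, while Lor, Flg2 and the simple epithelial keratins lie near or at 0.

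Genes can be compared with each other once the level is divided by transcript length, here the total length of a gene's exons in kilobases (CPM per kb). On that scale Krt14 was highest at 4443 CPM per kb, followed by Krt5 at 1626, Sfn at 1045, Krt15 at 734 and Perp at 685. The suprabasal keratins Krt10 and Krt1 were at 125.5 and 15.6 CPM per kb. Among the envelope genes Ivl stood at 6.96, Lor at 0.178 and Flg2 at 0.0183 CPM per kb. The plakins of the envelope, Ppl and Evpl, stood at 21.4 and 10.5 CPM per kb and the suprabasal keratin Krt77 at 4.41, so the levels did not follow the layers gene by gene.

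The bases before the start site are shown for 4 genes. Krt79 and Grhl3 passed the test between code runs, and Ivl and Lor are envelope genes. The pairs were not set apart by level, since Grhl3 was at 9.48 CPM per kb, close to Ivl at 6.96. The sequences are RefSeq promoters of build GRCm38.p6, written 5′ to 3′ on the strand of the gene, in lower case with motif matches in capitals.
Krt79 (chr15:101940325-101940574, minus strand): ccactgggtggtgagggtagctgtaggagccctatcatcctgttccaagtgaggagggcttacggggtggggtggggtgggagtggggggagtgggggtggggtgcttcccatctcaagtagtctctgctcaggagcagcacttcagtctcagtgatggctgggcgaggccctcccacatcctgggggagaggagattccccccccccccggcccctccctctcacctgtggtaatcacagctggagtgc
Grhl3 (chr4:135573633-135573882, minus strand): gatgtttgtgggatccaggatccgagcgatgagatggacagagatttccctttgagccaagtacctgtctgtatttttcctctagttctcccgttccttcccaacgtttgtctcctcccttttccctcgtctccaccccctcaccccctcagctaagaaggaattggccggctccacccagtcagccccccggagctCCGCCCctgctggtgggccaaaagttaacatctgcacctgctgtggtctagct
Ivl (chr3:92573736-92573985, minus strand): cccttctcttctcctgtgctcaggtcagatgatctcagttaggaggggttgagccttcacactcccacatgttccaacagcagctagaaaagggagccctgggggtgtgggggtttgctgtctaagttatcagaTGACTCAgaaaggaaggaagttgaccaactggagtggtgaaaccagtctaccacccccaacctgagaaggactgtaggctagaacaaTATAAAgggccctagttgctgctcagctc
Lor (chr3:92083143-92083392, minus strand): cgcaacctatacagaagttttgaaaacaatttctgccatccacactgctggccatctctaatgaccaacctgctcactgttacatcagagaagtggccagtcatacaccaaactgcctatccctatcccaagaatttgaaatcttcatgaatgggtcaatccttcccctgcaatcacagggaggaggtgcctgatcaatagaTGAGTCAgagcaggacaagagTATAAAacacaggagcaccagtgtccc

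Each sequence was searched on both strands for the TATA box TATAAA. A second motif was the AP-1 site TGANTCA. A grainyhead family motif was written AACNGGTT. The GC box was GGGCGG. The Krt79 sequence held no match, and the Grhl3 sequence held a GC box 53 bases before the start. Ivl had a TATA box 29 bases and an AP-1 match 116 bases before its start, and Lor had them 27 and 48 bases before. Promoters of 22 member genes, in 26 entries, were in the RefSeq table, in windows that ran on 50 bases past the start. An AP-1 match was in 9 of the 26 entries (34.6%) against 7.81% of all 32851 promoters. These 9 entries belonged to 7 genes, Dmkn with 3 entries, Flg, Flg2, Ivl, Krtdap, Lor and Sbsn, all of them suprabasal or cornified genes. The Dmkn windows from 30763506 and 30763508 on chromosome 7 overlap, and the same AP-1 site was counted in both. A TATA box was in 6 of 26 entries (23.1% against 13.6%), a GC box in 7 (26.9% against 35.7%) and the grainyhead motif in 1, that of Sfn (3.85% against 2.09%). A match is a description of letters and shows no binding.

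The basal genes were the most abundant, and of the 4 only Trp63 passed the threshold (adjusted p under 0.05) in an edgeR fit as reported. Krt14 (ENSMUSG00000045545.8, GRCm38 chromosome 11, 100203162 to 100207548, minus strand), the type I keratin of basal cells, was at 8362, 6463, 8282 and 8876 CPM in RMN030 to RMN033. In RMN036 to RMN039 it was at 8115, 8235, 7081 and 7067 CPM. The lowest library was RMN031 and the highest RMN033, both of the earlier run, and the runs overlapped. The means were 7412 ± 1343 CPM in WT and 7074 ± 10.15 CPM in KO in the undisputed libraries (SD, n = 2). By title they were 7794 ± 893 and 7827 ± 902 CPM, and by description 7996 ± 1055 and 7624 ± 637.5 CPM (n = 4). Its log2 fold change, KO minus WT, was -0.02 (SE 0.14) in the undisputed libraries, -0.0046 (SE 0.10) by title and -0.03 (SE 0.10) by description, with adjusted p of 0.977, 0.998 and 0.953 in edgeR.

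Krt5 (ENSMUSG00000061527.6, chromosome 15, 101707070 to 101712898, minus strand), the type II partner of Krt14, spanned 3234 to 3951 CPM with the highest value again in RMN033. The log2 fold changes of Krt5 were -0.04 (SE 0.13), -0.0034 (SE 0.09) and -0.04 (SE 0.08) in the same order, with adjusted p of 0.956, 0.998 and 0.907 in edgeR. Dst, whose epithelial form anchors keratin filaments to hemidesmosomes, was at 320.3, 330.0, 453.5 and 461.8 CPM in the earlier run and at 271.0, 284.8, 316.2 and 290.6 CPM in the later run. The ranges of the runs did not overlap, but Dst did not pass the threshold (log2 fold change -0.38, SE 0.12, adjusted p 0.145 in edgeR by description).

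Trp63 (ENSMUSG00000022510.13, chromosome 16, 25683763 to 25892102, plus strand) encodes p63, the transcription factor that maintains basal keratinocytes. It was at 271.1, 338.1, 441.5 and 369.9 CPM in RMN030 to RMN033, and at 249.4, 236.8, 165.1 and 173.1 CPM in RMN036 to RMN039. Every earlier library was above every later one, and the 2 undisputed KO libraries were the lowest of the 8. Between the undisputed libraries Trp63 fell from 305 ± 47.35 to 169 ± 5.67 CPM (SD, n = 2; log2 fold change -0.80, SE 0.15, edgeR adjusted p 0.0327). By description it fell from 355 ± 70.8 to 206 ± 43.2 CPM (n = 4; -0.74, SE 0.15, edgeR adjusted p 0.0226), 1.67-fold. By title the means were 274 ± 45.1 and 287 ± 139.7 CPM (0.05, SE 0.28, edgeR adjusted p 0.998). The call by description was lost without RMN032, RMN033, RMN038 or RMN039 (adjusted p 0.0636 to 0.0768 in edgeR) and with the replicate block (adjusted p 0.0745), and that in the undisputed libraries was lost without RMN038 (adjusted p 0.0863).

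Among the hair follicle and stress keratins, Krt15 and Krt79 moved in opposite directions between the code runs. Krt15 (ENSMUSG00000054146.8, chromosome 11, 100131758 to 100135928, minus strand), a keratin of basal cells and of the hair follicle bulge, was at 1476, 1337, 1599 and 1656 CPM in the earlier run. In the later run it was at 1061, 1060, 1065 and 1120 CPM, all below the lowest earlier library. By description it fell from 1517 ± 142 to 1076 ± 29.2 CPM (SD, n = 4; log2 fold change -0.45, SE 0.08, edgeR adjusted p 0.00985), 1.37-fold. The undisputed difference of -0.32 (SE 0.13) did not pass (edgeR adjusted p 0.372), and by title it was 0.13 (SE 0.15, adjusted p 0.998).

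Krt79 (ENSMUSG00000061397.7, chromosome 15, 101929332 to 101940324, minus strand) marks the cells of the upper follicle that form the opening of the hair canal. It was at 69.4, 59.4, 94.9 and 87.7 CPM in the earlier run and at 182.1, 221.3, 134.6 and 115.1 CPM in the later run, and the 2 runs did not overlap. The highest values, in RMN036 and RMN037, belong to libraries whose genotype is disputed. By description Krt79 rose from 77.9 ± 16.35 to 163 ± 47.8 CPM (SD, n = 4; log2 fold change 1.11, SE 0.19, edgeR adjusted p 0.00769), 2.16-fold. Between the undisputed groups it rose from 64.4 ± 7.11 to 125 ± 13.8 CPM (n = 2; 1.00, SE 0.18, edgeR adjusted p 0.0270), and by title the log2 fold change was -0.30 (SE 0.43, adjusted p 0.998). Without RMN030 and RMN031, the libraries with the T cell markers, the description value was 0.90 (SE 0.22) with an edgeR adjusted p of 0.1015.

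The 4 remaining keratins of the group did not pass in any of these fits. Krt16, induced with Krt6a, Krt6b and Krt17 in wounded or stressed epidermis, was at 761.9, 584.4, 771.0 and 793.9 CPM in RMN030 to RMN033 and at 833.3, 888.7, 712.6 and 719.5 CPM in RMN036 to RMN039. RMN031 was the lowest library, and the runs overlapped. The log2 fold change of Krt16 was 0.13 (SE 0.15) in the undisputed libraries, -0.04 (SE 0.12) by title and 0.16 (SE 0.11) by description, with edgeR adjusted p of 0.827, 0.998 and 0.616. Krt17 spanned 137.8 to 277.4 CPM, Krt6a 82.4 to 111.5 CPM and Krt6b 19.85 to 41.96 CPM. Krt6a and Krt6b are near-identical copies, so the split of reads between them is uncertain.

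The simple epithelial keratins, which mark glands, Merkel cells and single-layered epithelia, were close to absent. Krt7 was at 0.764, 0.269, 0 and 0.211 CPM in the earlier and at 0.941, 0, 0.710 and 1.09 CPM in the later run, 55 counts in all. Its ranges overlapped in every reading, and its log2 fold change by description was 1.17 (SE 1.09, edgeR adjusted p 0.744). Krt8 reached at most 2.16 CPM (102 counts in all), Krt18 at most 0.568 CPM (27 counts) and Krt19 at most 0.211 CPM (13 counts). Of the 5 reported fits Krt8 passed the filter on low counts in the undisputed one (log2 fold change -0.20, SE 1.05, edgeR adjusted p 0.975), and Krt18 and Krt19 in none of them.

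The suprabasal group held 3 of the 4 members that rose by description. Lypd3 (ENSMUSG00000057454.4, chromosome 7, 24636550 to 24641118, plus strand) encodes a GPI-anchored surface protein of suprabasal keratinocytes. It was at 241.5, 218.3, 287.1 and 303.0 CPM in RMN030 to RMN033 and at 411.2, 422.9, 425.7 and 385.4 CPM in RMN036 to RMN039. All later libraries were above all earlier ones, and within the later run the title genotypes overlapped. By description Lypd3 rose from 262 ± 39.35 to 411 ± 18.4 CPM (SD, n = 4; log2 fold change 0.69, SE 0.10, edgeR adjusted p 0.0035), 1.61-fold. It also rose between the undisputed groups, from 230 ± 16.4 to 405.5 ± 28.5 CPM (n = 2; 0.86, SE 0.14, edgeR adjusted p 0.0157), and by title the log2 fold change was 0.11 (SE 0.22, adjusted p 0.998).

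Grhl3 (ENSMUSG00000037188.7, chromosome 4, 135541888 to 135573630, minus strand) encodes a grainyhead transcription factor required for barrier formation. Its level was 13.1, 19.7, 19.3 and 18.45 CPM in the earlier run and 32.1, 39.6, 37.9 and 31.2 CPM in the later run, again without overlap. By description Grhl3 rose from 17.65 ± 3.06 to 35.2 ± 4.16 CPM (SD, n = 4; log2 fold change 1.04, SE 0.16, edgeR adjusted p 0.00484), 2.06-fold. The undisputed difference, 1.12 (SE 0.27), did not pass (edgeR adjusted p 0.111), and by title the log2 fold change was 0.03 (SE 0.34, adjusted p 0.998).

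Krt1 (ENSMUSG00000046834.6, chromosome 15, 101845426 to 101850794, minus strand), the type II keratin of differentiating cells, was at 57.8, 59.5, 48.35 and 33.6 CPM in the earlier run. In the later run it was at 101.0, 85.5, 85.2 and 81.6 CPM. The earlier libraries labelled KO by title were the lowest, and the later run lay wholly above the earlier. By description Krt1 rose from 49.8 ± 11.9 to 88.3 ± 8.62 CPM (SD, n = 4; log2 fold change 0.87, SE 0.17, edgeR adjusted p 0.0163), 1.82-fold. That call was lost without RMN032 (adjusted p 0.0574 in edgeR) or RMN036 (adjusted p 0.0620). Krt1 did not pass in the undisputed libraries (0.55, SE 0.17, edgeR adjusted p 0.234), nor did it by title (-0.29, SE 0.29, adjusted p 0.998).

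Its partner Krt10 was at 256.8, 277.1, 226.1 and 182.3 CPM in the earlier run and at 303.6, 301.8, 322.7 and 251.3 CPM in the later run. The runs overlapped, and Krt10 did not pass by description (log2 fold change 0.36, SE 0.13, edgeR adjusted p 0.205). Sfn, the stratifin adaptor protein, was at 1502, 1335, 1883 and 1929 CPM and then at 1806, 1762, 1546 and 1727 CPM, in the order of the codes. Its log2 fold change was 0.25 (SE 0.13) in the undisputed libraries, 0.14 (SE 0.11) by title and 0.08 (SE 0.11) by description, with edgeR adjusted p of 0.527, 0.998 and 0.830. Sbsn, a secreted suprabasal protein, spanned 127.6 to 146.6 CPM in the earlier and 148.7 to 197.2 CPM in the later run without overlap, yet did not pass (log2 fold change 0.33, SE 0.10, edgeR adjusted p 0.155).

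The other suprabasal members varied without a call in these 3 fits. Ovol1, a transcription factor of differentiating keratinocytes, was the one member whose title groups did not overlap: 187.5 to 242.5 CPM in WT and 260.0 to 302.9 CPM in KO. Krt80 spanned 113.1 to 137.0 CPM and Dmkn 95.7 to 144.2 CPM. Lgals7, a galectin of stratified epithelia, spanned 26.6 to 39.2 CPM, and Krtdap, a secreted differentiation-associated peptide, 4.15 to 8.87 CPM. Krt77 varied most, from 2.42 CPM in RMN038 to 24.1 CPM in RMN032.

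**Figure D2:**
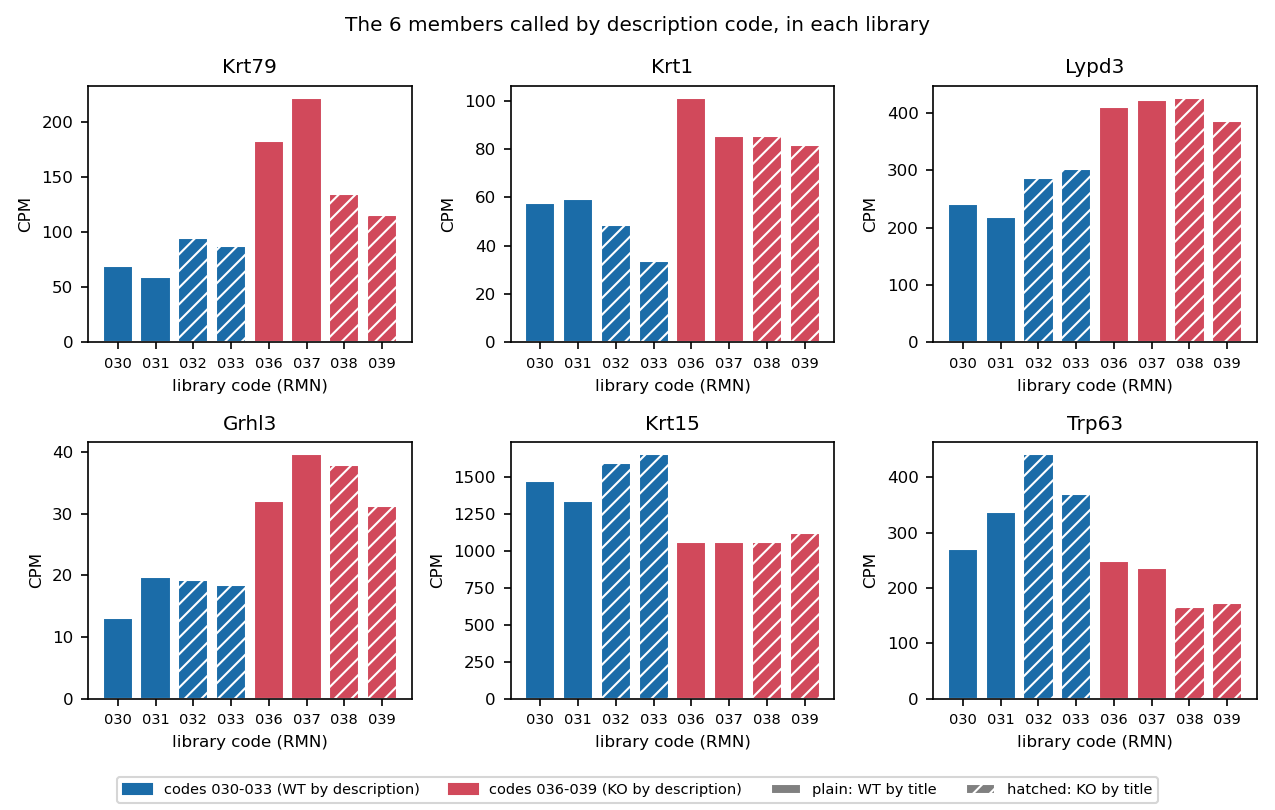
CPM of the 6 members that passed the threshold by description, as one bar per library in the order of the codes; blue bars are the earlier and red bars the later run, and hatched bars are KO by title. Krt79, Krt1, Lypd3 and Grhl3 are higher in every later library, and Krt15 and Trp63 lower, while hatched and plain bars overlap in height in every panel.

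None of the 10 desmosomal genes passed in any edgeR fit as reported. Dsp, the desmoplakin that links the desmosome to keratin filaments, was at 465.8, 477.7, 631.9 and 561.5 CPM in RMN030 to RMN033 and at 514.2, 538.2, 510.5 and 442.8 CPM in RMN036 to RMN039. The runs overlapped, and its log2 fold changes were 0.06 (SE 0.13) in the undisputed libraries, 0.10 (SE 0.10) by title and -0.05 (SE 0.10) by description, with edgeR adjusted p of 0.928, 0.998 and 0.914. Perp, a membrane protein of desmosomes that is a target of p53 and p63, was at 949.7, 1142, 1655 and 1329 CPM and then at 1334, 1346, 1480 and 1462 CPM. RMN030 and RMN031 were the lowest, so that the difference was largest in the undisputed libraries (0.54, SE 0.13, edgeR adjusted p 0.101). For Perp the edgeR value was 0.31 (SE 0.11, adjusted p 0.998) by title and 0.20 (SE 0.13, adjusted p 0.589) by description, on the log2 scale. Perp passed in the undisputed libraries with DESeq2 (adjusted p 0.00416) and limma voom (adjusted p 0.0249). It also passed there in edgeR with no filter on low counts (adjusted p 0.00872), but not with RLE scaling or above 1 CPM.

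The cadherins of the desmosome fell into abundant and scarce members. Dsc3 spanned 352.3 to 638.8 CPM, Dsg1a 190.5 to 366.0 CPM and Dsg3 156.9 to 263.9 CPM, and of these Dsc3 and Dsg3 are the forms of the lower layers. Dsg2, the form of simple epithelia, spanned 7.78 to 22.9 CPM, Dsc2 0.613 to 5.24 CPM and Dsc1, the desmocollin of the upper layers, 0.271 to 2.27 CPM. The plakophilins Pkp1 and Pkp3, which bind the cadherin tails, spanned 421.9 to 597.9 and 255.4 to 319.8 CPM. Dsg1a has near copies in the mouse genome, so its count is uncertain. By description 0 of the 10 genes were below an unadjusted p of 0.05 in edgeR, beside 1848 of all 14630 genes. DESeq2 and limma voom called 0 of them by description, beside 660 and 376 of all genes. The undisputed fit had 3 of the 10 below an unadjusted p of 0.05, beside 1657 of all 14727 genes. The title fits without and with the code run also had 3 each, beside 672 and 900 of all 14630 genes.

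The cornified genes split by function. The plakins Ppl and Evpl, periplakin and envoplakin, which form the scaffold of the envelope, were well measured. Ppl was at 124.9, 137.9, 174.3 and 192.2 CPM in the earlier and at 153.1, 157.5, 131.2 and 109.9 CPM in the later run. Evpl was at 52.4, 50.8, 68.8 and 55.0 CPM and then at 78.8, 84.2, 59.3 and 87.05 CPM. In both genes the runs overlapped. By description Ppl had a log2 fold change of -0.15 (SE 0.14, edgeR adjusted p 0.756). Evpl had 0.49 (SE 0.14, edgeR adjusted p 0.107) and passed with DESeq2 only (adjusted p 0.0224). In the undisputed libraries they were at -0.08 (SE 0.16, adjusted p 0.923) and 0.55 (SE 0.22, adjusted p 0.37), and by title at 0.07 (SE 0.15) and 0.02 (SE 0.20), both with an edgeR adjusted p of 0.998.

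The structural proteins of the envelope were scarce. Ivl, involucrin, was at 4.28, 6.14, 11.6 and 15.9 CPM in the earlier and at 12.6, 19.5, 27.2 and 9.86 CPM in the later run, with RMN030 and RMN031 the lowest. Its log2 fold change was 1.87 (SE 0.46, edgeR adjusted p 0.113) in the undisputed libraries, the largest of the members there. It passed with DESeq2 (adjusted p 0.0124), with no filter on low counts (adjusted p 7.3e-05 in edgeR) and without RMN039 (2.41, SE 0.41, adjusted p 1.4e-06 in edgeR). By title Ivl was at 0.60 (SE 0.45, adjusted p 0.998) and by description at 0.92 (SE 0.39, adjusted p 0.327) in edgeR. Tgm1, the transglutaminase that crosslinks the envelope, was at 1.53, 4.63, 4.41 and 3.16 CPM and then at 3.03, 14.4, 13.1 and 4.34 CPM. Lor, loricrin, was found in 4 libraries only, at 0.611, 0.368, 0.949 and 0.599 CPM in RMN030, RMN032, RMN033 and RMN037, 42 counts in all. In the 4 libraries at 0 counts a level of up to 3 counts, 0.162 to 0.271 CPM, is allowed by counting error alone. Flg2, a filaggrin-like protein, was found in RMN030, RMN032 and RMN033 at 0.305, 1.10 and 1.63 CPM, 53 counts in all, and in none of the 4 later libraries. Lor and Flg2 were below the filter on low counts in the 5 reported fits. Within the earlier run alone, the title log2 fold change was 1.15 (SE 1.39, edgeR adjusted p 0.896) for Lor and 3.21 (SE 1.25, edgeR adjusted p 0.569) for Flg2. No difference of Lor or Flg2 between groups can be read at this depth.

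Over the whole list, 3 of 38 tested members passed in the undisputed libraries, Krt79 and Lypd3 higher in KO and Trp63 lower. Among all 14727 genes tested there, 0.794% passed, 0.448% higher and 0.346% lower. The median log2 fold change of the members was 0.21, beside -0.0016 over all genes. The count of 3 was 6, 9, 2 and 7 without RMN030, RMN031, RMN038 and RMN039 in turn, 6 with no filter on low counts and 7 with DESeq2. Over all genes the 117 called became 263, 629, 342, 435, 440 and 305 in the same order. By description 6 of 37 tested members passed (16.2%), 4 higher and 2 lower, beside 2.02% of 14630 genes, 1.43% higher and 0.595% lower. The members' median was 0.17, beside -0.0085 over all genes. The CPM ranges of the groups did not overlap for 8 of 37 members, 5 higher and 3 lower in KO, beside 8.82% of all genes tested. In the exact two-sided permutation test of CPM, 4 libraries against 4 without overlap always give the smallest possible p, 0.0286. That value follows from the lack of overlap and adds no support for these 8 genes. With 2 against 2 the smallest is 0.333.

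By title the same genes did not separate. With edgeR 0 of 37 members passed, beside 0 of 14630 genes (0% called). DESeq2 and limma voom also called 0 members, beside 19 and 0 of all 14630 genes. An unadjusted p under 0.05 was found for 5 members, Ovol1, Dsg1a, Perp, Dst and Dsc3, all at higher values in KO, beside 672 of all 14630 genes. The median log2 fold change of the members was 0.03. One gene, Ovol1, had groups that did not overlap, beside 2.94% of all genes. Its means were 212 ± 22.8 CPM in WT and 283 ± 17.7 CPM in KO (SD, n = 4; log2 fold change 0.41, SE 0.10, edgeR adjusted p 0.912).

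With the code run as a term beside the title genotype, again 0 of 37 members and 0 of all genes (0%) passed in edgeR. There 7 members were below an unadjusted p of 0.05, beside 900 of all 14630 genes, and Ovol1 had the smallest (log2 fold change 0.41, SE 0.09, edgeR adjusted p 0.387). DESeq2 called 1 member, Ovol1 (adjusted p 0.0159), and 46 of all genes, and limma voom called 0 members and 3 of all genes. The 6 members that passed by description had log2 fold changes from -0.34 (Krt1) to 0.15 (Lypd3) for the title genotype in this fit. The plot of fold changes shows both readings side by side.

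**Figure D3:**
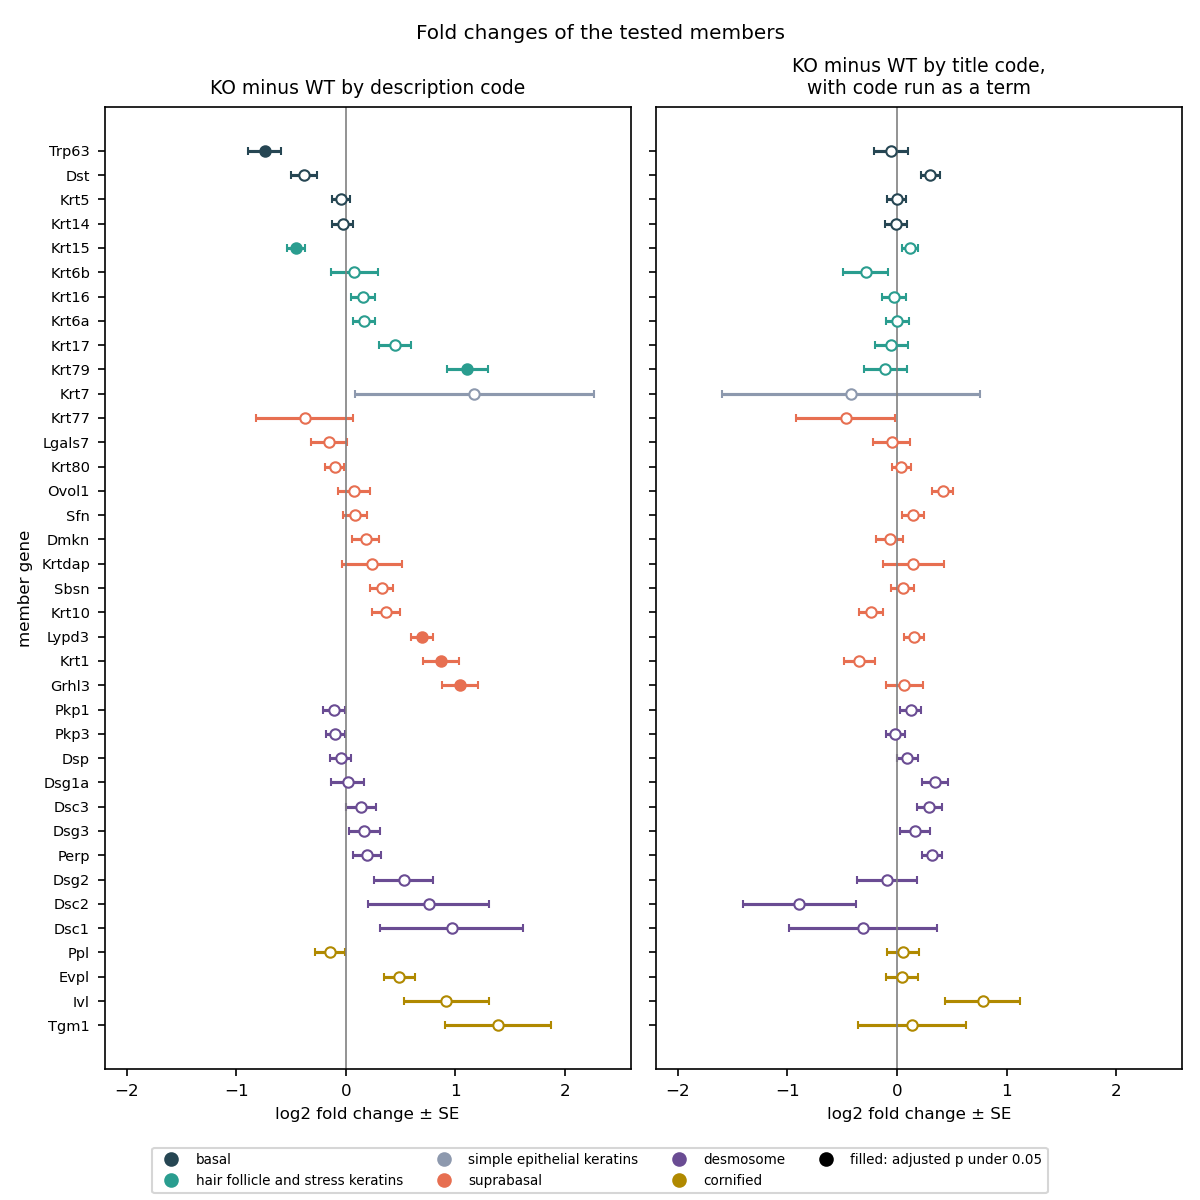
Log2 fold change, KO minus WT, with its SE for the 37 tested members in edgeR, by description (left) and by title with the code run as a term (right), coloured by role; filled points have an adjusted p under 0.05. On the left 6 points are filled, from Trp63 at -0.74 to Krt79 at 1.11, and on the right none is.

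The title contrast was also set apart by run, since both title genotypes occur in each run. Krt79 was at 0.47 (SE 0.17) in the earlier and -0.66 (SE 0.13) in the later run, on the log2 scale. Trp63 was at 0.38 (SE 0.15) and -0.50 (SE 0.09), and Ppl at 0.44 (SE 0.14) and -0.34 (SE 0.12). For each of these genes the KO value by title thus lay above WT in the earlier and below it in the later run. The difference between the runs was -1.13 (SE 0.21) for Krt79, -0.87 (SE 0.18) for Trp63 and -0.78 (SE 0.18) for Ppl. Their adjusted p in edgeR's interaction test were 0.154, 0.165 and 0.237. In that test 0 of 37 members passed, beside 7 of 14630 genes (0.0478%), and 8 members were below an unadjusted p of 0.05, beside 1154 of all genes. DESeq2 called 95 of all genes and 3 members, Krt79 (adjusted p 0.000991), Trp63 (adjusted p 0.00346) and Ppl (adjusted p 0.0245). Limma voom called 4 of all genes and 0 members. Krt1, Lypd3, Grhl3 and Krt15 had interaction values of 0.43 (SE 0.26), -0.33 (SE 0.15), -0.19 (SE 0.34) and -0.10 (SE 0.13).

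Ratios of 2 genes within a library do not depend on its total, and here they are given as counts of one gene per 100 counts of another, with no test. The basal pair was steady: Krt5 was at 42.8 to 50.1 per 100 Krt14 in the 8 libraries, 46.2 ± 2.64 (SD, n = 4) in the earlier and 45.6 ± 1.98 in the later run. Within the desmosome, Dsc3 was at 234 ± 8.33 per 100 Dsg3 in the earlier and 232 ± 21.4 in the later run. Several ratios separated the runs without overlap. Krt15 was at 19.1 ± 1.27 and 14.2 ± 1.47 per 100 Krt14, Krt79 at 0.971 ± 0.134 and 2.12 ± 0.457, Lypd3 at 3.29 ± 0.268 and 5.42 ± 0.430, and Trp63 at 4.49 ± 0.986 and 2.68 ± 0.350. The suprabasal pair was not steady, since Krt1 was at 20.9 ± 1.76 per 100 Krt10 in the earlier and 30.1 ± 3.29 in the later run. Grhl3 was at 7.44 ± 2.05 and 14.4 ± 3.30 per 100 Ovol1, another transcription factor of the same layers. Overlap between the runs remained for Krt10, at 3.04 ± 0.936 and 3.88 ± 0.458 per 100 Krt14, and for Krt16, at 785 ± 132 and 777 ± 61.9 per 100 Krt6a.

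**Figure D4:**
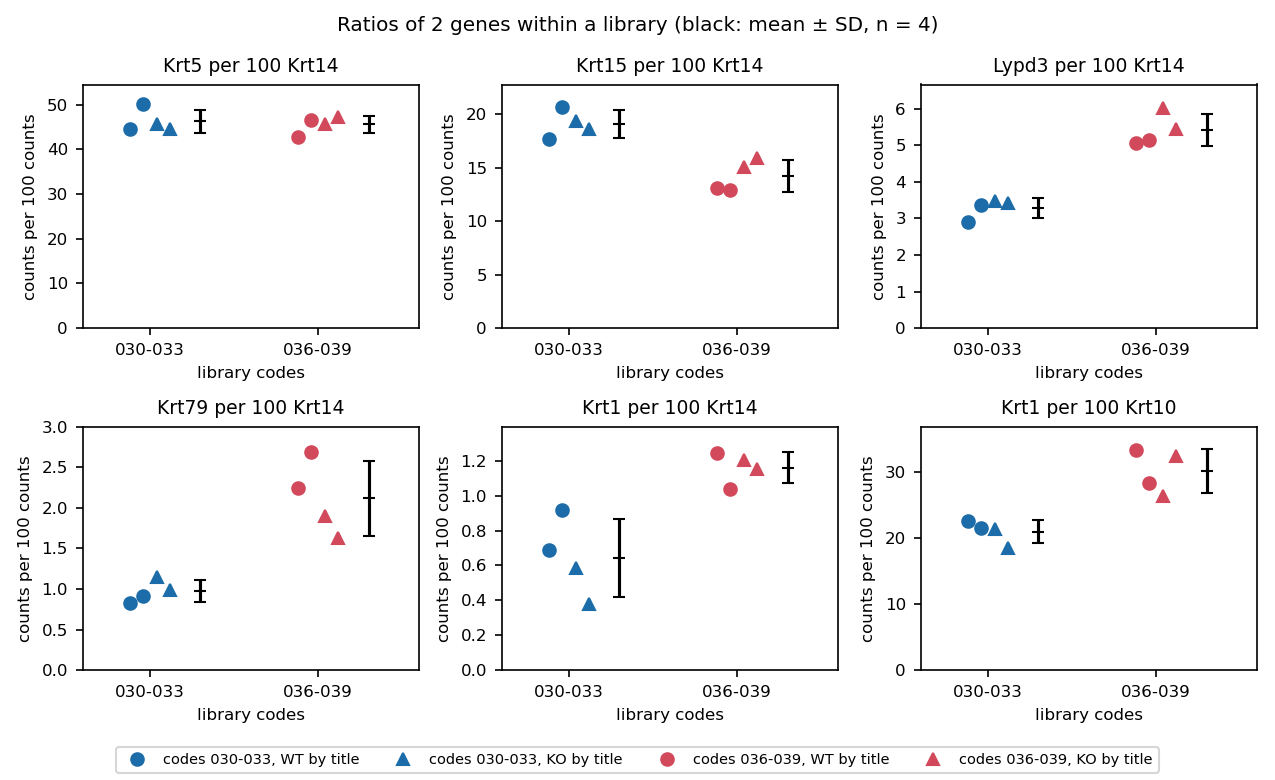
Counts of one gene per 100 counts of another in each library, by code run, with mean ± SD (n = 4) in black; circles are WT and triangles KO by title. Krt5 per 100 Krt14 stays between 42.8 and 50.1, while the other 5 ratios separate the earlier (blue) from the later (red) run.

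The red cell, fibroblast and mast cell markers moved between the same libraries as the 6 members. By description 5 of 5 red cell markers, 4 of 6 fibroblast markers and 4 of 5 mast cell markers passed in edgeR, all higher in the later run. Over all genes 2.02% passed. The remaining mast cell marker, Kit, went the other way (log2 fold change -0.33). It was at 26.19 to 37.33 CPM in the earlier and 18.16 to 30.86 CPM in the later run. Kit also made up most of the mast cell sum in each earlier library. The mast cell protease gene Cpa3 was at 0 in RMN033 alone, and no red cell or fibroblast marker was at 0. Their part in the members' differences was not tested. The T cell markers, high in RMN030 and RMN031, bear on the WT group of every reading. Without both libraries, 7 members passed by description, beside 226 of all 15675 genes tested. Of these 7 members 5 were among the 6 above. Krt79 was lost, and Dst (log2 fold change -0.60, SE 0.09, edgeR adjusted p 0.00772) and Krt10 (0.59, SE 0.12, edgeR adjusted p 0.0441) were added. By title 0 members passed in edgeR without them, beside 0 of all 15675 genes. There 7 members were below an unadjusted p of 0.05, a count not made over all genes.

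Related genes outside the 43 were counted from lists of the same pathways. Of 18 tested cornification genes, 1 passed by description, the small proline-rich envelope gene Sprr1a, at 25.8 to 35.5 CPM in the earlier and 55.0 to 63.5 CPM in the later run (log2 fold change 0.92, SE 0.14, edgeR adjusted p 0.00367). The median of these 18 was 0.52 and 15 were positive, beside a median of -0.0085 and 7147 positive of all 14630 genes, with 2.02% called. Among the keratinocyte regulators the transcription factor Klf5 rose by description (1.06, SE 0.10, edgeR adjusted p 8.2e-05). Of the 13 tested regulators 5 were positive and 8 negative, with a median log2 fold change of -0.05. Klf5 was at 72.9 to 92.9 CPM in the earlier and 162.0 to 175.4 CPM in the later run. None of 9 tested hair follicle and sebaceous genes passed in edgeR, though 5 were below an unadjusted p of 0.05, beside 1848 of all 14630 genes. Klf5 also passed in the undisputed libraries (1.09, SE 0.16, edgeR adjusted p 0.00923), and by title its log2 fold change was 0.03 (SE 0.36, edgeR adjusted p 0.998).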

How the data were processed

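Bulk RNA sequencing counts of 8 libraries of sorted Langerhans cells were analysed. The authors deposited raw read counts, one per gene and library, made with STAR 2.5.2b and featureCounts 1.5.0 on GRCm38 (mm10), per the submitters' processing notes. The annotation used in counting, its strand setting and how pairs were handled are not given in the sources used here, so overlapping and antisense genes cannot be told apart. Among counts from 1 to 20, 60.1% were even, so mates may have been counted separately, and floors cover counting error only. No column was left unused (0).

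Identifiers were matched to symbols without their version (25080 matched, 167 did not), and gene positions and exon lengths came from GENCODE release M21 of GRCm38. CPM is a gene's count scaled to the library total. Groups followed the codes in titles or in descriptions. edgeR 4.0.16 in R 4.3.3 was run on all genes: filterByExpr, TMM, robust quasi-likelihood F-tests, two-sided, knockout minus wild type, Benjamini-Hochberg adjustment over all genes tested, threshold 0.05. Errors are SE for log2 fold changes and SD for CPM. Single genes were also compared by exact two-sided permutation tests of CPM (scipy 1.17.1). The fits of the 3 readings were tested on simulated data with known changes; those with the code run were not.

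The members and gene lists were chosen with earlier results of these data known. Full statistics are given for every member past the threshold in any of the 5 fits and the 2 most abundant members of each role, and for up to 3 genes of each further list that passed by description. Some results under this rule are not reported here. Genes outside that rule, such as Ovol1, Dst, Krt10, Sbsn and Ivl, were chosen after their values were seen. The alternatives tried were DESeq2 1.42.0, limma 3.58.1 voom with quality weights, RLE scaling, testing every gene, testing genes above 1 CPM, leaving out each library, a replicate block and fitting within a code run. Omitting RMN030 and RMN031 by title, and the alternatives of the interaction test other than DESeq2, were added after the data were seen.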

Additional observations from a re-analysis of the deposited data

Results flagged for a closer look

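In the 16 members with full statistics, 64 groups of 4 libraries were examined for a single library far from the other 3, and 3 were found, where chance alone, about 1 in 20 groups, gives 3.2. Krt14 was at 6463 CPM in RMN031, against 8115 to 8362 CPM in the other libraries labelled WT by title. Krt16 was at 584.4 CPM in RMN031 as well, against 761.9 to 793.9 CPM in the other libraries labelled WT by description. Krt15 was at 1120 CPM in RMN039, against 1060 to 1065 CPM in the other libraries labelled KO by description.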

How the results depend on the processing

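In the undisputed libraries, where 3 members passed, 6 passed with no filter on low counts and 7 with DESeq2, beside 440 and 305 of all genes. Leaving out a library gave 2 to 9, namely 6 without RMN030, 9 without RMN031, 2 without RMN038 and 7 without RMN039. In these fits the lone library of a group is assumed to vary like the other group. Krt79 and Lypd3 kept their calls in all 9 alternatives, and Trp63 in 8. By description 4 to 7 members passed in 15 alternatives, beside 140 to 660 of all genes tested. Grhl3, Lypd3 and Krt15 passed in all 15, with log2 fold changes of 0.94 to 1.09, 0.54 to 0.76 and -0.54 to -0.41. Krt79 passed in 14, Krt1 in 13 and Trp63 in 10, and no value changed sign. By title 0 members passed in all 17 alternatives, within a code run too. Over all genes the earlier run alone called 57 and the later run alone 0. No filter called 1 gene by title and DESeq2 19. With the code run as a term, where none passed, no filter gave 2 (Ovol1 and Perp) and DESeq2 gave 1. Beside these stood 139 and 46 of all genes. For the interaction, where none passed, no filter gave 4 (Krt79, Trp63, Krt17 and Ppl) and DESeq2 gave 3. All genes called were 178 and 95 in that order. The cause of these shifts was not tested. Libraries with the same replicate number had deviations that correlated at 0.052 to 0.101 by title and -0.007 to 0.030 by description. Libraries of unlike number were not compared in this way, so whether a number stands for a shared animal or day was not tested. The replicate block gave 5 members by description and 0 by title, beside 174 and 0 of all 14630 genes. The undisputed groups share no replicate number. Depth limits Lor, Flg2, Krt18 and Krt19, which were below the filter on low counts in the reported fits.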
